A study of Mus musculus with 20 samples.

Results

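Replication-dependent histone genes were examined in the bone marrow and kidney of mice given oxaliplatin, a platinum drug that forms adducts on DNA and blocks its copying. The set was defined by gene symbol alone. It took every gene of both count tables whose symbol began with Hist1h, Hist2h, Hist3h or Hist4h, was one of H1f1 to H1f5, or began with H2ac, H2bc, H3c or H4c followed by a digit, and symbols marked as pseudogenes by -ps were left out. This gave 65 of 55486 genes, with 5 of class H1, 19 of H2A, 17 of H2B, 12 of H3 and 12 of H4. On the mouse genome build GRCm38, 55 of them lie on chromosome 13 (the Hist1 genes) and 10 on chromosome 3 (the Hist2 genes). The annotation lists 63 as protein-coding and 2 as pseudogenes, H2ac14 and Hist1h2al.

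Core histones H2A, H2B, H3 and H4 form the spool around which DNA is wound, and the linker histone H1 binds where the DNA enters and leaves it. A cell copying its DNA needs new histones to package it, so these clustered genes are transcribed mainly in S phase, and their mRNAs are the animal messages that normally end in a conserved stem-loop in place of a poly(A) tail. The stem-loop is bound by SLBP, which takes part in the processing, translation and decay of the message. Bone marrow is among the most rapidly dividing tissues of an adult, whereas few cells of a healthy adult kidney are in cycle.

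The study compared C57BL/6 mice, 10 weeks old at the start, that received oxaliplatin at 10 mg/kg by intraperitoneal injection in 5% dextrose with mice that received 5% dextrose alone (vehicle), each over 8 weeks. No transgene or mutant allele was involved. The study's methods name male and female mice and the labels give no sex, but 4 Y-linked genes summed to 77.5 to 173 CPM (counts scaled to a common library total) in all 20 libraries, which goes against female mice among them. RNA was sequenced from marrow of the tibia and femur, collected 6 days after the last dose, and from kidney, with 5 mice in each of the 4 groups and 20 libraries in all. Both tissues are mixtures of cell types, and in such bulk RNA fewer cells of a type and less RNA per cell cannot be told apart.

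Libraries held 30660153 to 41140527 gene-assigned reads in marrow and 24393007 to 30925430 in kidney. At these depths 3 reads, the most that a count of 0 allows, correspond to at most 0.0975 CPM in marrow and 0.130 CPM in kidney, counting error only. At least 1 read was found for 60 of the 65 genes. The other 5 genes (H2ac18, H2ac19, H2bc18, H3c13 and H3c14) were at 0 in all 20 libraries, and every 50-base window of their transcripts also occurs in another gene. Of the 65 genes, 36 share at least 50% of their 50-base windows with another gene, so reads of near-identical copies may have been split between them or set aside, and 22 overlap an exon of a gene on the opposite strand, whose reads cannot be told apart without strand. The tables do not show whether counting used strand.

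The stem-loop itself was read from the annotated 3′ UTRs of the reference transcripts. The search was for the histone form alone. It took a 6-base stem of GG, then C or T, with T last, and a 4-base loop without G. The loop had to hold T before its last base. After it came a pairing 6-base stem of A, then A or G, ending in CC. Hairpins of other sequence were not looked for, so the counts do not describe hairpins in general. This form was found in 42 of 48 histone genes with an annotated 3′ UTR of at least 16 bases (87.5%). Of 20933 other protein-coding genes, 21 had it (0.1%). It began 22 to 59 bases after the stop codon, with a median of 32. Within the pattern searched, 8 distinct sequences occurred, and they are shown as a feature that these 42 genes share beyond their names. H1f1 and H2bc4 were among the genes without a match. The stem is in capitals and the loop in lower case, 5′ to 3′, from GENCODE transcripts on GRCm38, each with the gene that stands for it here.
H1f2: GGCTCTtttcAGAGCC
H4c6: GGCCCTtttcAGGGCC
H3c3: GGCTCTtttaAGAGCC
H4c14: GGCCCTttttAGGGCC
H4c11: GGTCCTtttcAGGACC
H4c1: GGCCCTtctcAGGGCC
H3c8: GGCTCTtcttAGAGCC
H2ac20: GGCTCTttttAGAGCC
The sequence given for H1f2 was carried by 24 genes of classes H1, H2A, H2B and H3, among them H1f4, H2ac4, H2bc9, H2bc14 and H3c4. The H4 stem differed: the sequence shown for H4c6 was carried by 6 genes, all of class H4. The loop ending in a, shown for H3c3, was carried by 5 genes, H3c3, H3c6, H3c7, H2bc3 and H2bc12.

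Promoters were compared over 300 bases, 250 before to 50 after the RefSeq start, with 59 promoters of 58 of the 65 genes, since H2bc6 has 2 starts. The octamer ATTTGCAT, the sequence that OCT1 (Pou2f1) binds in H2B promoters, was found on either strand in 7 of 16 H2B promoters (43.8%), in 6 of 17 H2A promoters (35.3%) and in none of the 5 H1, 10 H3 and 11 H4 promoters, against 1.7% of 32792 other promoters. CCAAT on either strand was found in 86.4% of the histone promoters and in 37.3% of the others, and TATAAA in 57.6% and 13.5%. All H1, H2A, H2B and H3 promoters examined held CCAAT, but 3 of 11 H4 promoters did (27.3%). Many H2A and H2B genes lie head to head with overlapping windows. Where such a pair holds an octamer, namely H2ac12 with H2bc12, H2ac8 with H2bc8, and H2ac1 with H2bc1, 1 octamer is counted for both promoters. Matches to CCAAT and TATAAA are likewise counted for both promoters where windows overlap, also in pairs without an octamer. Examples are CCAAT in H2ac13 with H2bc13 and TATAAA in H2ac7 with H2bc7. Letters that match a motif do not show that a factor is bound. The promoters of 3 highly expressed neighbours on chromosome 13 are shown (RefSeq, GRCm38.p6, 5′ to 3′ on the strand of the gene), with the 3 motifs in capitals on whichever strand they occur. H2bc3 at chr13:23746484-23746783 (+) has the octamer 90 bases before the start, H2ac4 at chr13:23750838-23751137 (+) has it on the other strand 129 bases before the start, and H3c3 at chr13:23745472-23745771 (-) has none.
H2bc3: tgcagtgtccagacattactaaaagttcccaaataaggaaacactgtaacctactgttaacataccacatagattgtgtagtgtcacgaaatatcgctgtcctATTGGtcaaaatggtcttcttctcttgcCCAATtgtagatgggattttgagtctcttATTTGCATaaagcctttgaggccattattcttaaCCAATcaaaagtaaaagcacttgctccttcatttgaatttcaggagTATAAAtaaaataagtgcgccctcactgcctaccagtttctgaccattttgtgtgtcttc
H2ac4: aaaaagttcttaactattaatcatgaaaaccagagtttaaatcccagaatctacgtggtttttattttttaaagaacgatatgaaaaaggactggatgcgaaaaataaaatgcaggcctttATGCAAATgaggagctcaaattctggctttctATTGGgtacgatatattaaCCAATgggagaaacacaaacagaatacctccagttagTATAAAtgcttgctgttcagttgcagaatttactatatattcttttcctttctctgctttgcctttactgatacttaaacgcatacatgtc
H3c3: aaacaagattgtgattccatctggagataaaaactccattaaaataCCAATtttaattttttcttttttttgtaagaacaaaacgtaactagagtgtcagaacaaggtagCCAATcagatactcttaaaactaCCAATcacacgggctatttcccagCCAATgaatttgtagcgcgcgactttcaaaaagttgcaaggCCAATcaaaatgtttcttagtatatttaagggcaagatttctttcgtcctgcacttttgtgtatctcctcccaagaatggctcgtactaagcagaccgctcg

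In vehicle-treated marrow the 65 genes together took 2.91%, 3.08%, 2.88%, 3.20% and 2.42% of all counted reads in mice 1 to 5. After oxaliplatin the shares were 0.962%, 1.23%, 1.68%, 1.27% and 1.08%. The lowest vehicle mouse lay above the highest treated mouse, and the mean share fell from 2.90% ± 0.297 to 1.24% ± 0.273 (SD, n = 5 each), 2.33-fold lower. All 5 classes took a smaller share, from 2.21-fold lower for H1 to 2.66-fold lower for H2A, and no class overlapped between the groups. Their proportions to each other moved little: H4 made up 26.6% of histone reads in both groups, H3 24.3% in both, H1 25.3% and 26.7%, H2B 17.8% and 17.1%, and H2A 6.0% and 5.26%. As sums over the set, these shares were not tested.

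**Figure D1:**
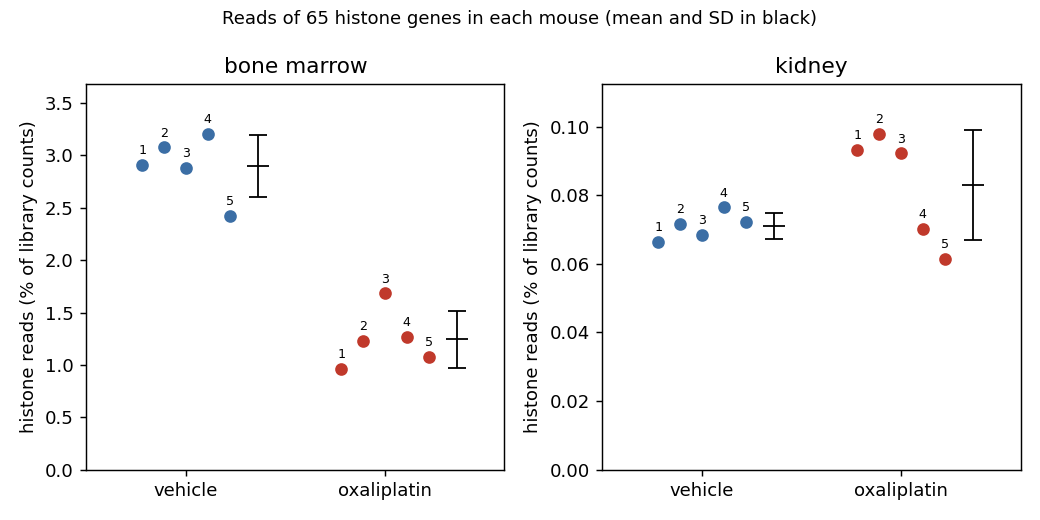
Reads of the 65 histone genes as a percent of all gene-assigned reads in each library, for vehicle and oxaliplatin mice in marrow (left) and kidney (right), with mouse numbers beside the points and the mean ± SD (n = 5) in black. The axes differ between the panels. Marrow groups do not overlap, at 2.42% to 3.20% and 0.962% to 1.68%, whereas kidney groups do, at 0.0665% to 0.0765% and 0.0613% to 0.0979%.

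Nearly every histone gene was lower in marrow after oxaliplatin. Of the 65, 59 passed the filter on low counts, and 58 of these were called lower and 0 higher (edgeR quasi-likelihood test, Benjamini-Hochberg adjusted p under 0.05 and over 1.5-fold). Across all 22363 genes tested, 11.8% were called lower and 11.6% higher. No histone gene was higher at an unadjusted p under 0.05 either, and DESeq2 gave the same counts, 58 lower and 0 higher. The median log2 fold change of the 59 genes was −1.38, that is 2.61-fold lower, beside −0.04 over all genes tested. Their range was narrow, with quartiles of −1.48 and −1.27, and 57 of 59 were at least 2-fold lower. In 56 of the 59 every treated mouse was below every vehicle mouse (background 13.5% of genes), and the 3 exceptions were H2ac12, H2ac21 and Hist1h2an. The 6 genes that were not tested were the 5 at 0 and H2ac1.

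By class, the median log2 fold change in marrow was −1.38 for H1 (5 tested), −1.36 for H2A (16), −1.42 for H2B (16), −1.43 for H3 (10) and −1.34 for H4 (12), and every gene but 1 H2A gene was called lower. The 54 tested Hist1 genes, all called, had a median of −1.38. The 5 tested Hist2 genes, 4 of them called, had a median of −1.45. Genes that share at least 50% of their 50-base windows with another gene had a median of −1.33, and those that share less had −1.39. The 5 with an annotated spliced transcript were all called lower, with a median of −1.29.

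The linker histones were represented by H1f2 and H1f1, the 2 H1 genes with the most reads per kilobase in vehicle marrow. H1f2 (ENSMUSG00000036181, chr13:23738808-23740367, 1 exon) was at 2223, 2487, 2159, 2678 and 1883 CPM in vehicle mice 1 to 5 and at 766, 927, 1049, 799 and 853 CPM in treated mice, where CPM is scaled by trimmed mean of M-values (TMM). Every treated mouse was below every vehicle mouse, and the log2 fold change was −1.38 ± 0.13 (SE, adjusted p = 6.42e-06). H1f1 went from 1060, 1146, 1122, 1335 and 837 CPM to 251, 366, 682, 434 and 303 CPM, again without overlap, with treated mouse 3 nearest to the vehicle mice. Its log2 fold change was −1.43 ± 0.24 (adjusted p = 4.62e-04). Per kilobase of exon, vehicle marrow held 1484 CPM of H1f1 and 1465 CPM of H1f2, levels that differ by less than their SD. H1f4 (chr13:23620629-23622558) was among the least lowered, at 1375 ± 127 CPM in vehicle and 649 ± 85.4 CPM in treated mice, a log2 fold change of −1.08 ± 0.12 (adjusted p = 1.86e-05). An exon of H1f4 overlaps that of H2bc6 on the same strand.

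Among H2A genes, H2ac4 (ENSMUSG00000061615, chr13:23751126-23751598), whose promoter is shown above, was at 539, 568, 529, 635 and 439 CPM in vehicle mice and at 126, 174, 215, 151 and 150 CPM in treated mice. The lowest vehicle mouse was above the highest treated mouse by more than the whole range of the treated group, and the log2 fold change was −1.73 ± 0.15 (adjusted p = 2.34e-06). H2ac15 (chr13:21753435-21753827) had 496 ± 48.3 CPM in vehicle and 152 ± 29.1 CPM in treated mice, −1.71 ± 0.13 on the log2 scale (adjusted p = 1.25e-06). The lowest fold changes of all were those of the 2 annotated pseudogenes, at very low levels: H2ac14 (chr13:21721457-21721808) went from 3.26 ± 0.720 to 0.855 ± 0.146 CPM (−1.93 ± 0.24, adjusted p = 4.10e-05) and Hist1h2al from 1.16 ± 0.360 to 0.317 ± 0.127 CPM (−1.85 ± 0.35, adjusted p = 0.00128). At the other end, H2ac21 was the only tested gene not called, with 7, 4, 15, 11 and 14 reads in vehicle mice 1 to 5 and 15, 3, 18, 15 and 1 reads in treated mice (−0.25 ± 0.61, adjusted p = 0.796). Hist1h2ao, with 93.5% of its 50-base windows in another gene, went from 31.7 ± 3.79 to 15.2 ± 4.00 CPM (−1.06 ± 0.16, adjusted p = 2.48e-04).

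H2B was led by H2bc15 and H2bc3. H2bc3 (ENSMUSG00000075031, chr13:23746734-23747241), whose promoter with the octamer is shown above, was at 549, 783, 571, 800 and 448 CPM in vehicle mice and at 185, 234, 307, 212 and 187 CPM in treated mice. The groups were apart although the vehicle mice themselves ranged from 448 to 800 CPM, and the log2 fold change was −1.49 ± 0.19 (adjusted p = 5.01e-05). H2bc15 (chr13:21754123-21754503) had 1085 ± 190 CPM in vehicle and 360 ± 73.8 CPM in treated mice (−1.59 ± 0.16, adjusted p = 9.40e-06). Hist1h2br, which shares 88.7% of its windows with Hist1h2bq, was the least lowered H2B gene, from 37.5 ± 5.29 to 18.6 ± 4.80 CPM (−1.01 ± 0.16, adjusted p = 4.05e-04). H2A and H2B genes with the octamer in their promoter had a median log2 fold change of −1.38 in marrow and those without it −1.32.

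Among H3 genes, H3c3 (ENSMUSG00000069310, chr13:23744973-23745602) was at 1430, 1580, 1502, 1722 and 1239 CPM in vehicle mice and at 459, 588, 742, 514 and 511 CPM in treated mice. Vehicle mouse 4 was the highest and vehicle mouse 5 the lowest of their group, treated mouse 3 was the highest of its own, and the log2 fold change was −1.41 ± 0.15 (adjusted p = 1.08e-05). H3c6 fell from 1368 ± 192 to 565 ± 138 CPM (−1.28 ± 0.17, adjusted p = 6.94e-05). H3c8 (chr13:23535422-23535951), the only gene with its loop sequence, had the smallest change of the called genes, from 557 ± 68.4 to 297 ± 83.8 CPM (−0.91 ± 0.17, adjusted p = 0.00129).

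The 12 H4 genes encode 1 and the same protein of 103 residues, whereas the H3 genes encode 3 proteins, the 17 coding H2A genes 8, the 17 H2B genes 11 and the 5 H1 genes 5. H4c6 (ENSMUSG00000069274, chr13:23551258-23551648) was at 1038, 1115, 1036, 1249 and 806 CPM in vehicle mice and at 336, 397, 502, 365 and 371 CPM in treated mice. These ranges did not overlap, and the log2 fold change was −1.41 ± 0.14 (adjusted p = 8.94e-06). H4c12 had 909 ± 154 and 343 ± 76.5 CPM (−1.41 ± 0.16, adjusted p = 2.92e-05). H4c14 (ENSMUSG00000091405, chr3:96261682-96263311), from the chromosome 3 genes, was the most lowered H4 gene, from 1005 ± 141 to 315 ± 61.4 CPM (−1.67 ± 0.15, adjusted p = 3.29e-06).

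**Figure D2:**
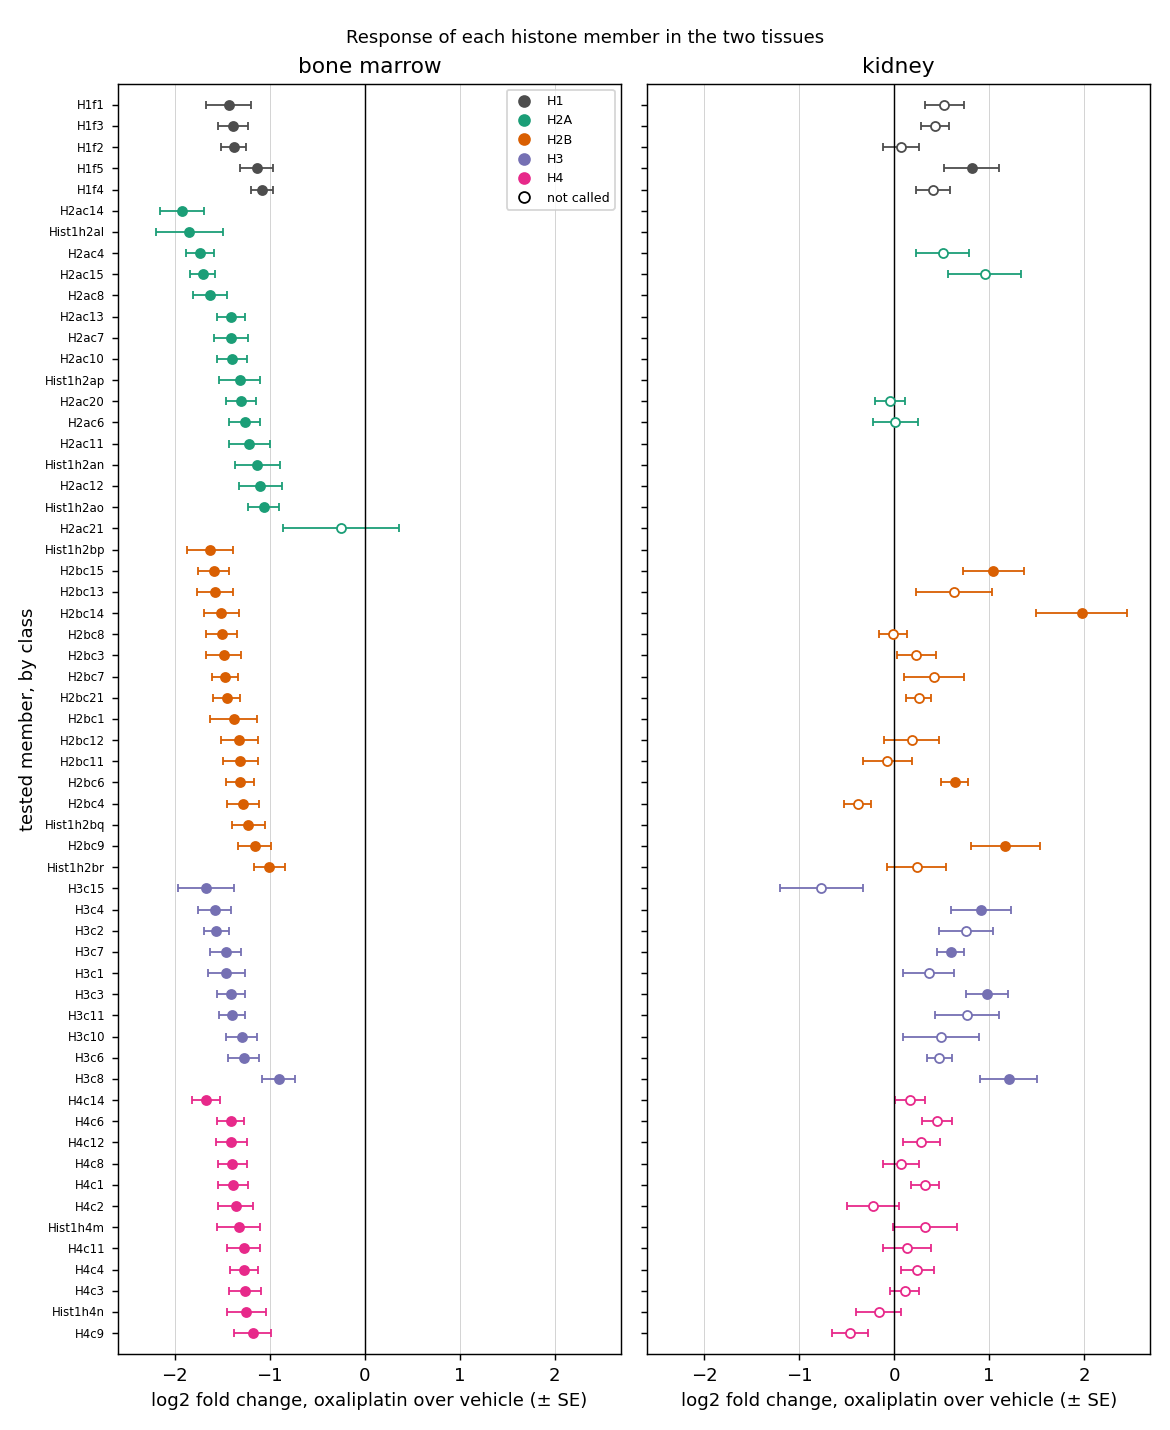
Log2 fold change of oxaliplatin over vehicle (± SE) for each of the 59 histone genes tested in marrow (left) and the 44 tested in kidney (right), grouped and coloured by class, with filled points for called genes and open points for the others. In marrow 58 filled points lie between −1.93 and −0.91, and in kidney 9 filled points lie above 0.

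The same mice stood at the ends of their groups in most histone genes in marrow. Treated mouse 3 was the highest treated mouse in 58 of 59 genes, the exception being H2ac21, and treated mouse 1 the lowest in 49. Vehicle mouse 4 was the highest vehicle mouse in 47 genes and vehicle mouse 5 the lowest in 51. Because the genes of a library share that library, such agreement is not replication. Leaving out any 1 mouse kept 58 genes called lower, and the median log2 fold change stayed between −1.51, without treated mouse 3, and −1.29, without treated mouse 5.

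Markers of other cell types moved in the same marrow libraries, where 11.8% of all genes tested were called lower and 11.6% higher. Of 10 erythroid precursor markers 9 were called lower, and their summed level was 23840 to 41636 CPM in vehicle and 3256 to 7805 CPM in treated mice. Of 10 B cell precursor markers 7 were called lower (351 to 630 CPM and 89.5 to 171 CPM). The 6 granulocyte precursor markers had a median log2 fold change of 0.02, with overlapping sums (2998 to 3522 CPM and 2622 to 4277 CPM), and the 6 markers of mature neutrophils had a median of −0.17 (12100 to 14801 CPM and 4918 to 18321 CPM). All 5 adipocyte markers were called higher (19.3 to 50.7 CPM and 252 to 1699 CPM). Of 5 skeletal muscle markers 4 were called higher, but with overlapping sums (9.51 to 93.0 CPM and 39.5 to 701 CPM). The part of these cell types in the lower histone levels was not tested.

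Kidney held far fewer histone reads. In vehicle mice the set took 0.0665%, 0.0718%, 0.0685%, 0.0765% and 0.0722% of reads, 40.8-fold less than in vehicle marrow. After oxaliplatin the shares were 0.0931%, 0.0979%, 0.0922%, 0.0702% and 0.0613%. Treated mice 1 to 3 lay above all vehicle mice, whereas treated mouse 4 was within and mouse 5 below the vehicle range. The reads were also spread differently over the genes: the 5 genes with the most reads made up 74.5% of histone reads in vehicle kidney (H1f2, H2bc4, H4c3, H4c8 and H4c4) and 29.7% in vehicle marrow (H1f2, H1f3, H4c4, H3c7 and H3c3). H4 made up 42.7% of histone reads in vehicle kidney, against 26.6% in marrow, and H3 4.26%, against 24.3%. Marrow RNA was extracted with Trizol and a column and kidney RNA with the column kit alone, so tissue and extraction cannot be told apart in these levels.

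In kidney 9 histone genes rose and none fell. Of the 65, 44 passed the filter on low counts, and 9 were called higher and 0 lower (edgeR quasi-likelihood test, same thresholds), with a background of 7.68% of 19293 genes called higher and 3.81% lower. At an unadjusted p under 0.05, 18 were higher and 2 lower, and DESeq2 called 10 higher and 0 lower. The 9 were H3c3, H3c4, H3c7 and H3c8 of class H3, H2bc6, H2bc9, H2bc14 and H2bc15 of class H2B, and H1f5 of class H1. The median log2 fold change of the 44 was 0.35, beside 0.02 over all genes tested, and 36 were above 0. Class medians were 0.43 for H1 (5 tested), 0.26 for H2A (4), 0.26 for H2B (13), 0.68 for H3 (10) and 0.15 for H4 (12). Of the 44 tested, 4 had every treated mouse above every vehicle mouse, a share near the background of 9.69% of genes. These were H2bc6, H2bc9, H2bc14 and H3c7, all among the 9 called. The count of 9 was sensitive to the settings: 5 genes were called without vehicle mouse 1, 14 when libraries were scaled by their size alone, 4 at a threshold of 2-fold, and 0 when the test itself was set against 1.5-fold.

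The largest kidney change was that of H2bc14 (ENSMUSG00000114279, chr13:21722044-21722567), with 10, 0, 14, 6 and 8 reads in vehicle mice 1 to 5 and 37, 57, 25, 30 and 29 reads in treated mice. The highest vehicle count was below the lowest treated count, and the log2 fold change was 1.98 ± 0.48 (adjusted p = 0.00530). H3c8, the least lowered of the called genes in marrow, had 12, 12, 15, 15 and 27 reads in vehicle and 51, 61, 30, 32 and 47 reads in treated mice (1.21 ± 0.30, adjusted p = 0.00639). Its read counts did not overlap, but in CPM vehicle mouse 5 (1.09) was level with treated mouse 3 (1.08). H2bc9 (chr13:23541714-23543392) had 5, 9, 17, 19 and 17 reads and then 49, 42, 25, 36 and 26 reads (1.17 ± 0.37, adjusted p = 0.0223). That call was lost without vehicle mouse 1 (adjusted p = 0.0515) and without treated mouse 1 (adjusted p = 0.0626).

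H2bc15 had 20, 9, 15, 26 and 36 reads in vehicle kidney and 55, 65, 36, 60 and 40 reads after oxaliplatin (1.04 ± 0.32, adjusted p = 0.0209), with an adjusted p of 0.0543 without vehicle mouse 3. H3c3 had 38, 35, 48, 57 and 63 reads and then 115, 144, 91, 120 and 85 reads, which is 1.93 ± 0.538 and 3.80 ± 0.896 CPM (0.98 ± 0.22, adjusted p = 0.00318). On the CPM scale its lowest treated mouse and highest vehicle mouse were both at 2.55. Most of the genes that rose were at the low end of the kidney levels: the 5 with the largest fold changes had vehicle means of 0.309 to 1.93 CPM, whereas H3c7 was at 10.1 ± 0.982 CPM and rose to 15.3 ± 3.60 CPM (0.60 ± 0.14, adjusted p = 0.00459).

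The histone genes that led the kidney level did not pass the test. H1f2, with the most reads, was at 179, 168, 131, 165 and 135 CPM in vehicle and 174, 231, 176, 116 and 120 CPM in treated mice. The ranges overlapped, the treated mice spreading on both sides of the vehicle mice, and the log2 fold change was 0.07 ± 0.19 (adjusted p = 0.816). H2bc4 had 139 ± 10.8 and 107 ± 24.6 CPM (−0.38 ± 0.14, adjusted p = 0.0636), H4c3 had 117 ± 9.92 and 127 ± 31.9 CPM (0.11 ± 0.15, adjusted p = 0.619), and H4c8 had 84.1 ± 10.1 and 88.5 ± 24.5 CPM (0.07 ± 0.19, adjusted p = 0.809). H3c6, H4c6 and H1f3 passed the adjusted p but not the fold threshold. Their values were 0.48 ± 0.13 (adjusted p = 0.0121), 0.45 ± 0.16 (adjusted p = 0.0416) and 0.43 ± 0.15 (adjusted p = 0.0355). Treated mouse 5 was the lowest treated mouse in 32 of the 44 genes and treated mouse 2 the highest in 24.

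**Figure D3:**
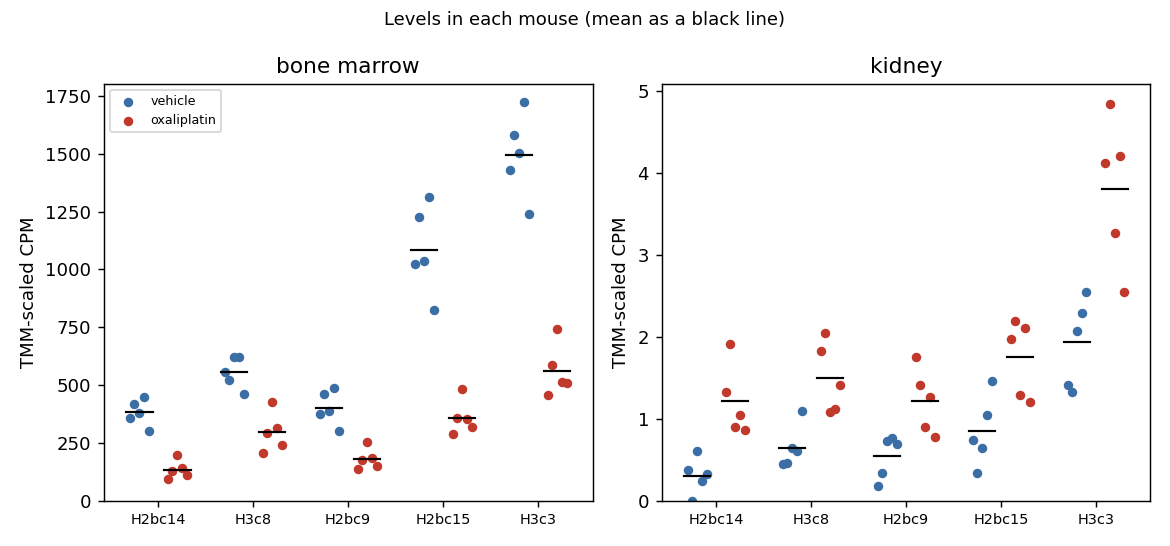
TMM-scaled CPM of named histone genes in each mouse, vehicle and oxaliplatin side by side with the mean as a black line, in marrow (left) and in kidney (right, on another scale), for the 5 genes with the largest kidney fold changes among those called there. In marrow the treated mice lie below the vehicle mice for each gene drawn, and in kidney H2bc14 and H2bc9 separate, H3c3, H3c8 and H2bc15 touch or overlap.

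Cell type markers were also read in the kidney libraries, where 3.81% of all genes tested were called lower and 7.68% higher. Of 6 tubule and glomerulus markers 1, Nphs1 of the glomerulus, was called higher (0.60 on the log2 scale). The sum of all 6 was 16193 to 18850 CPM in vehicle and 14655 to 17503 CPM in treated mice. Of the 4 leukocyte markers tested 2 were called lower (list sums of 84.2 to 106 CPM and 39.9 to 57.9 CPM), and 3 of the 4 adipocyte markers tested were called higher (list sums of 1.86 to 14.2 CPM and 22.1 to 106 CPM). The granulocyte precursor markers Ctsg and Ms4a3 were at 0 in all 10 kidney libraries. The part of these cells in the kidney histone levels was not tested.

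The response to oxaliplatin differed between the tissues for most histone genes. In a fit over all 20 libraries, the tissue by treatment term was called in 48 of 59 histone genes, each with the kidney log2 fold change above that of marrow, and in 0 with the opposite sign. The background was 10.8% of 24321 genes in that direction. DESeq2 called 49 in that direction and 0 in the other, and no histone gene had the opposite sign at an unadjusted p under 0.05. The labels do not say whether marrow and kidney came from the same mice, and the fit took the libraries as separate. With a shared term for marrow and kidney libraries of the same treatment and number, 48 were called as well. The median difference was 1.64 on the log2 scale, and all 9 genes that rose in kidney were among the 48. For H2bc14 the difference was 3.43 ± 0.48 (adjusted p = 1.60e-05), for H3c3 2.32 ± 0.26 (adjusted p = 7.10e-07) and for H1f2 1.39 ± 0.23 (adjusted p = 8.46e-05). Of the 48, 6 had too few kidney reads to be tested there alone. The values of H4c9 in the 2 tissues (−1.18 ± 0.20 in marrow and −0.47 ± 0.19 in kidney) gave a difference of 0.64 ± 0.31 that did not pass (adjusted p = 0.126), but did among genes with 10 or more counts in every library (0.76 ± 0.29, adjusted p = 0.0370).

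Genes around the histone pathway were taken from 6 lists, whose counts stand against the backgrounds of 11.8% lower and 11.6% higher in marrow and 3.81% lower and 7.68% higher in kidney. Replication-independent histones, which are made outside S phase as well, gave a mixed picture in marrow: of 11 tested, 4 were called lower and 2 higher, with a median log2 fold change of −0.23. H2ax, the variant phosphorylated beside DNA breaks, was at 539 to 753 CPM in vehicle and 209 to 355 CPM in treated mice (−1.35 ± 0.15, adjusted p = 1.67e-05), and Cenpa, the H3 variant of centromeres, was 1.99-fold lower (adjusted p = 1.49e-05). H1f0, the linker histone of resting cells, rose from 36.2 ± 6.01 to 72.8 ± 9.61 CPM (1.01 ± 0.13, adjusted p = 5.87e-05) and Macroh2a2 by 1.46 ± 0.22 (adjusted p = 2.48e-04). In kidney 2 of the 11 were called, both higher, and Cenpa was 1 of them (1.27 ± 0.20, adjusted p = 2.28e-04). H2ax there reached at most 16.9 CPM in vehicle and 16.1 CPM in treated mice, with overlapping groups (−0.03 ± 0.14, adjusted p = 0.891).

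Of 8 genes for histone gene transcription, 4 were called lower in marrow (median −0.61), and the kidney median was 0.07. Ccne2 and Ccne1, the cyclins E that with CDK2 switch on histone transcription, changed by −1.13 ± 0.19 (adjusted p = 4.79e-04) and −0.94 ± 0.29 (adjusted p = 0.0277) in marrow. Npat, the CDK2 target and coactivator of histone genes, was at 49.8 to 57.8 CPM in vehicle and 30.2 to 43.8 CPM in treated marrow. These ranges did not overlap, but its change of −0.57 ± 0.10 (adjusted p = 8.68e-04) was under 1.5-fold. Hinfp, which binds H4 promoters, and Pou2f1 also passed the adjusted p without the fold (−0.46 ± 0.08, adjusted p = 5.38e-04, and −0.45 ± 0.10, adjusted p = 0.00476).

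Of 9 tested genes for histone mRNA processing and decay, 2 were called lower in marrow, with a median of −0.07. Slbp, the stem-loop binding protein, was at 100 to 126 CPM in vehicle and 45.5 to 84.9 CPM in treated mice (−0.91 ± 0.15, adjusted p = 3.72e-04). Zfp473, a zinc finger protein of the U7 processing machinery, changed by −0.83 ± 0.22 (adjusted p = 0.0110). Lsm10 of the U7 particle (0.15 ± 0.15, adjusted p = 0.468) and Cpsf3, the endonuclease that cleaves the message (0.18 ± 0.10, adjusted p = 0.170), did not pass. The kidney median was −0.05, and Slbp was there at 9.22 ± 0.671 and 9.25 ± 0.816 CPM.

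Histone chaperones and importers were called in 3 of 12 cases in marrow, 2 lower and 1 higher, shares near the backgrounds of 11.8% and 11.6%, with a median of −0.29. Asf1b, which hands new H3 and H4 to the assembly factors, changed by −0.89 ± 0.15 (adjusted p = 3.74e-04) and Chaf1a, a subunit of chromatin assembly factor CAF-1, by −0.70 ± 0.14 (adjusted p = 0.00212). Ipo4, an importin for histones, was the gene called higher (0.64 ± 0.16, adjusted p = 0.00779), and Nap1l1, an H2A and H2B chaperone, did not pass (0.28 ± 0.17, adjusted p = 0.237). In kidney 2 were called higher, Asf1b among them (1.37 ± 0.37, adjusted p = 0.0101).

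The marrow median of the histone genes lay below those of the usual markers of dividing cells. Of 20 genes of S-phase DNA synthesis 15 were called lower, with a median of −0.83, and of 12 genes of G2 and mitosis 9 were called lower, also with a median of −0.83, beside −1.38 for the histone genes. No test of the difference between the lists was made. Cdc6, which loads the replicative helicase, changed by −1.60 ± 0.25 (adjusted p = 3.86e-04), Tk1, a thymidine kinase, by −1.19 ± 0.12 (adjusted p = 7.79e-06) and Mki67, the Ki-67 antigen, by −1.53 ± 0.13 (adjusted p = 1.99e-06). Kif11, a mitotic motor, changed by −1.12 ± 0.12 (adjusted p = 1.70e-05), whereas Ccnb1 (−0.49 ± 0.18, adjusted p = 0.0551) and Cdc20 (−0.30 ± 0.17, adjusted p = 0.201), both regulators of mitosis, did not pass. Mcm3, a helicase subunit, did not pass either (−0.46 ± 0.20, adjusted p = 0.0919). In kidney, 3 of the 20 S-phase genes were called higher (median 0.24), and 8 of the 10 tested genes of G2 and mitosis (median 1.12). Their summed G2 and mitosis level was 9.70 to 14.9 CPM in vehicle and 26.0 to 40.6 CPM in treated kidney. Mki67 rose there from 3.22 ± 0.672 to 10.0 ± 2.92 CPM (1.63 ± 0.21, adjusted p = 5.19e-05) and Cdc6 from 0.320 ± 0.170 to 0.894 ± 0.316 CPM (1.46 ± 0.39, adjusted p = 0.00969).

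**Figure D4:**
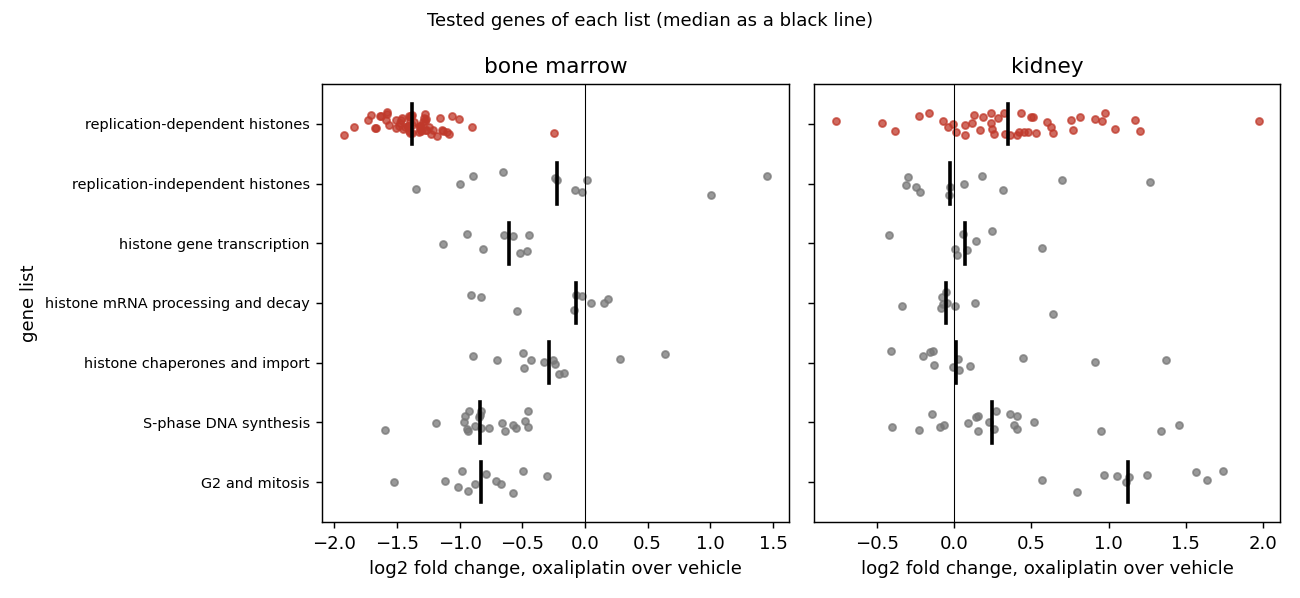
Log2 fold change of oxaliplatin over vehicle for each tested gene (points) of the histone set and of the 6 surrounding lists in marrow (left) and kidney (right), with the median of each list as a black line. The histone median is −1.38 in marrow, below those of S phase and of G2 and mitosis (both −0.83), and 0.35 in kidney, where that of G2 and mitosis is 1.12.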

How the data were processed

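RNA of 5 vehicle and 5 oxaliplatin mice per tissue was sequenced. The authors deposited 1 table of raw counts per gene for each tissue. Per the labels, ribosomal RNA was removed enzymatically, cDNA was primed with random hexamers, and STAR, featureCounts and Salmon were run on the reads. The study's methods instead name SMARTer cDNA, STAR and Ensembl release 101. The descriptions differ in how cDNA was primed, which bears on mRNAs without a poly(A) tail, and which of them applies to these libraries was not settled here. RIN was above 7. Each table had 55774 lines, of which 287 repeated an identifier and 1 had a missing value, leaving 55486 genes.

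The deposited counts went unchanged into edgeR 4.0.16 under R 4.3.3 (glmQLFit with robust set, then glmQLFTest; limma 3.58.1), with TMM scaling and filterByExpr with a minimum count of 10. Benjamini-Hochberg adjustment ran over all genes tested, 22363 in marrow, 19293 in kidney and 24321 for tissue by treatment. Called means adjusted p under 0.05 and over 1.5-fold. DESeq2 1.42.0, other scalings, filters, thresholds, a block, a covariate of 4 Y-linked genes, merged copies and leaving out each mouse were alternatives. The script was tested on simulated data.

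Named were the 2 genes per class with the highest CPM per kilobase in vehicle marrow, the 5 lowest and 5 highest marrow fold changes, the 5 largest kidney changes among called genes, any gene higher in marrow (none), and of each list Slbp, Npat and the 2 lowest and 2 highest marrow fold changes. 1 list gene that this rule names is not reported here. Others were named after their values were seen, to complete a count or to give the genes with the most reads. The members and lists were chosen with earlier results of these data known. Positions, 3′ UTRs and copies came from GENCODE M21 (GRCm38), promoters from RefSeq. Replicates of a group differed by more than counting noise. The labels call them biological replicates. Sex per library was not given in the labels.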

Additional observations from a re-analysis of the deposited data

Results flagged for a closer look

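Of 96 groups of 5 mice checked among named genes and summed shares, 1 held a mouse far from the rest, where chance gives about 1 in 20. Hist1h2ao in vehicle marrow was at 38.3 CPM in mouse 3 and at 28.8 to 30.6 CPM in the other mice.

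For 17 of the 20 named histone genes the effect of oxaliplatin differed between kidney and marrow by the tissue by treatment term (edgeR quasi-likelihood test, adjusted p under 0.05 and over 1.5-fold). Some of the 20 were named for their marrow or kidney fold change, so their count is not support of its own. Over all histone genes tested, 48 of 59 were called with kidney above marrow, and over all 24321 genes 10.8%. The kidney log2 fold change exceeded the marrow one by 1.89 for H1f1, 1.39 for H1f2, 1.43 for H1f4, 2.60 for H2ac15 and 2.18 for H2ac4. For H2B the differences were 2.57 for H2bc15, 1.66 for H2bc3, 1.17 for Hist1h2br, 3.43 for H2bc14 and 2.27 for H2bc9. For H3 they were 2.32 for H3c3, 1.69 for H3c6 and 2.05 for H3c8, and for H4 1.63 for H4c12, 1.80 for H4c6 and 1.77 for H4c14. H2ac14 had the largest value of the 17, 3.59, but between 0 and 2 reads in each kidney library, below the 3 reads that a count of 0 allows.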

How the results depend on the processing

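The 58 genes called lower in marrow became 57 at a threshold of 2-fold, when tested against 1.5-fold, and at 10 or more counts in every library (57 tested). With near-identical copies merged, 23 of 24 units were called in marrow and 4 of 21 in kidney. The 9 kidney genes became 14 with libraries scaled by size alone, 10 by DESeq2, 5 with a replicate block, 4 at a threshold of 2-fold and 0 when tested against 1.5-fold. Leaving out 1 mouse at a time gave 58 in marrow and 5 to 12 in kidney (5 without vehicle mouse 1). Without treated mouse 2, kidney had 7 calls, of which 6 were higher and 1 was lower. For the tissue by treatment term these omissions gave 45 to 50 calls. That term was called in 37 of 37 genes with 10 or more counts in every library, 36 of which were among the 48. The gene gained was H4c9 (adjusted p = 0.0370, against 0.126). Over the same omissions the histone medians ran from −1.51 to −1.29 in marrow and from 0.28 to 0.44 in kidney. Scaling by library size alone moved the median of all genes from −0.04 to 0.11 in marrow and from 0.02 to 0.16 in kidney, with histone medians of −1.23 and 0.48. Among the named histone genes, leaving out 1 mouse turned the sign of 2 uncalled values. H2ac21 in marrow ran from −0.48 to 0.078 (the latter without treated mouse 5) and H1f2 in kidney from −0.088 (without treated mouse 2) to 0.18. Other histone genes changed sign in kidney as well. There 8 of the 44 tested were below 0 with all mice, 5 without treated mouse 5 and 10 without treated mouse 2. Same-numbered vehicle and treated mice are different animals whose deviations correlated between −0.15 and 0.23, so the block only shares a number. It lost the kidney call of H2bc9 (adjusted p = 0.0637) and left 58 calls in marrow. The cause of these shifts was not tested. Low kidney counts limit what could be called there.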

Other observations

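A group of 6 neighbouring genes on chromosome 13, chosen after their values were seen, tended to order the vehicle marrow mice differently from most other histone genes. They are Hist1h2bq, Hist1h2ao, Hist1h4m, Hist1h4n, Hist1h2ap and Hist1h2br, between positions 21806612 and 21837530 (GRCm38), where 3 genes recur in mirrored order and each shares 85.6% to 97.3% of its 50-base windows with another gene. Vehicle mouse 3 stood at 1.01 to 1.66 times the mean of mice 2 and 4 in these genes, with a median of 1.30, and at 0.637 to 2.20 times in the other 53 tested genes, with a median of 0.880. The ranges overlap: H2ac21 (2.20), Hist1h2al (1.25), H3c8 (1.08) and H4c9 (1.01) lay above Hist1h2bq, the lowest of the 6, in which mouse 4 was highest, as in most other genes. Vehicle mouse 5, the lowest in 51 of the 59 tested genes, was the lowest in none of the 6.

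The annotated exon runs more than 200 bases past the stem-loop in 16 genes and ends within 200 bases of it in 26. Among those detected, the first 15 had a median vehicle kidney level of 10.1 CPM and a median marrow over kidney ratio of 80.9, and the 24 others 1.30 CPM and 205. The cut was chosen after the values were seen, and CPM here is not per length.

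In the summed level of 4 Y-linked genes, marrow of treated mouse 5 was at 99.1 CPM and the other 9 mice at 133 to 173 CPM.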
